A study of Mus musculus with 22 samples.

Results

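The genes of Sonic hedgehog signaling were examined in the choroid plexus (ChP) of adult mice, a secretory epithelium with a vascular stroma that makes the cerebrospinal fluid (CSF). The 9 genes are the ligand Shh, the receptors and transducers Ptch1 and Smo, the transcription factors Gli1, Gli2 and Gli3, the decoy receptor Hhip, and the co-receptors Boc and Cdon. They were chosen by name from 33984 genes with a transcript in the count data, and the transcript with the highest summed count stands for each gene. RNA was sequenced in 14 pools, 2 pools (A and B) in each of 7 groups, and the study asked what changes in adult ChP when the homeoprotein gene Otx2 is reduced.

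The conditional model used Otx2 lox/lox mice of strain S129, 3 months old, given an intracerebroventricular injection of the recombinant protein Cre-Tat or of vehicle and killed 15 days later. ChP of the lateral ventricles (LV) and of the 4th ventricle (4V) was dissected apart, which gave Cre and Veh groups for each ventricle, with 5 mice in each Cre pool and 4 mice in each Veh pool. Every mouse of this model, controls included, carried the floxed alleles, and the injections were made into the lateral ventricles. The constitutive model used 4V ChP of strain B6D2 labelled WT, Otx2 (+/-) and Otx2 (+/AA). For the Otx2 (+/-) and WT pools, the study's methods give an age of 3 months and tissue of 4 heterozygous mice, described as Otx2+/GFP, and of 5 wildtype littermates, and the labels call the duplicate pools biological replicates, but whether they came from separate animals is not stated, so that p-values in this model may measure technical spread. The age of the Otx2 (+/AA) mice and the nature of the AA allele are not described in the sources used here. The models differ in strain, in manipulation and in sequencing run, and these cannot be told apart.

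Each pool of the conditional model was sequenced in 2 runs, and 14 of the 16 files of these pools carry a library number that goes against the sample they are attached to. Files were joined by that number, since runs with the same number differed by sampling noise alone, and the results of the conditional model are also given with the files as attached, where each group holds mixed libraries. The constitutive model is not touched by this.

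Total counts over all transcripts were 22750019 to 50088408 per pool. Otx2 itself, counted over the full length of its transcript, went against the labels, since it was higher in the groups labelled as reduced. Levels are given as CPM, counts for every 1000000 counts of a library, with library sizes scaled by TMM. Otx2 stood at 383 to 476 CPM in the Veh pools and 1016 to 1245 CPM in the Cre pools, 303 to 362 CPM in WT, 884 to 1034 CPM in Otx2 (+/-) and 339 to 353 CPM in Otx2 (+/AA). The deleted exon cannot be read apart in a count over the whole transcript, so groups are called by their labels throughout. The tissue carried its defining markers: 10 epithelial genes, Ttr among them, summed to between 85153 and 232682 CPM in the groups compared. That sum was lower in every Cre, Otx2 (+/-) and Otx2 (+/AA) pool than in the control pools of the same ventricle and model. Most of it is Ttr and Enpp2, with means of 143556 and 42946 CPM in WT. Of the 10 genes, only Ttr and Folr1 were called lower in Otx2 (+/-) than in WT. In bulk tissue, fewer cells of a type and less RNA per cell cannot be told apart.

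In the absence of ligand, Ptch1 holds Smo inactive. When a Hedgehog ligand binds Ptch1 together with the co-receptors Boc, Cdon and Gas1, Smo enters the primary cilium and the Gli factors are turned into activators. Ptch1, Gli1 and Hhip are themselves classical targets of the pathway, and because Ptch1 and Hhip bind the ligand, their induction limits the signal. In the embryo, Shh made by the hindbrain ChP epithelium acts on the progenitors beside it and on the growing ChP vasculature.

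Of the 9 genes, Shh, Hhip and Cdon were higher in 4V ChP labelled Otx2 (+/-) than in WT, and in the same libraries Ptch1 and Smo differed by less than 1 standard error from WT. Boc was the only one of the 7 tested that passed the threshold between the Cre and Veh pools, in 4V ChP. Hhip and Cdon were also lower in LV than in 4V ChP of the Veh mice. The dot plots of the 9 genes show the level of each gene in all 14 pools, and the next paragraphs take them by role.

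**Figure D1:**
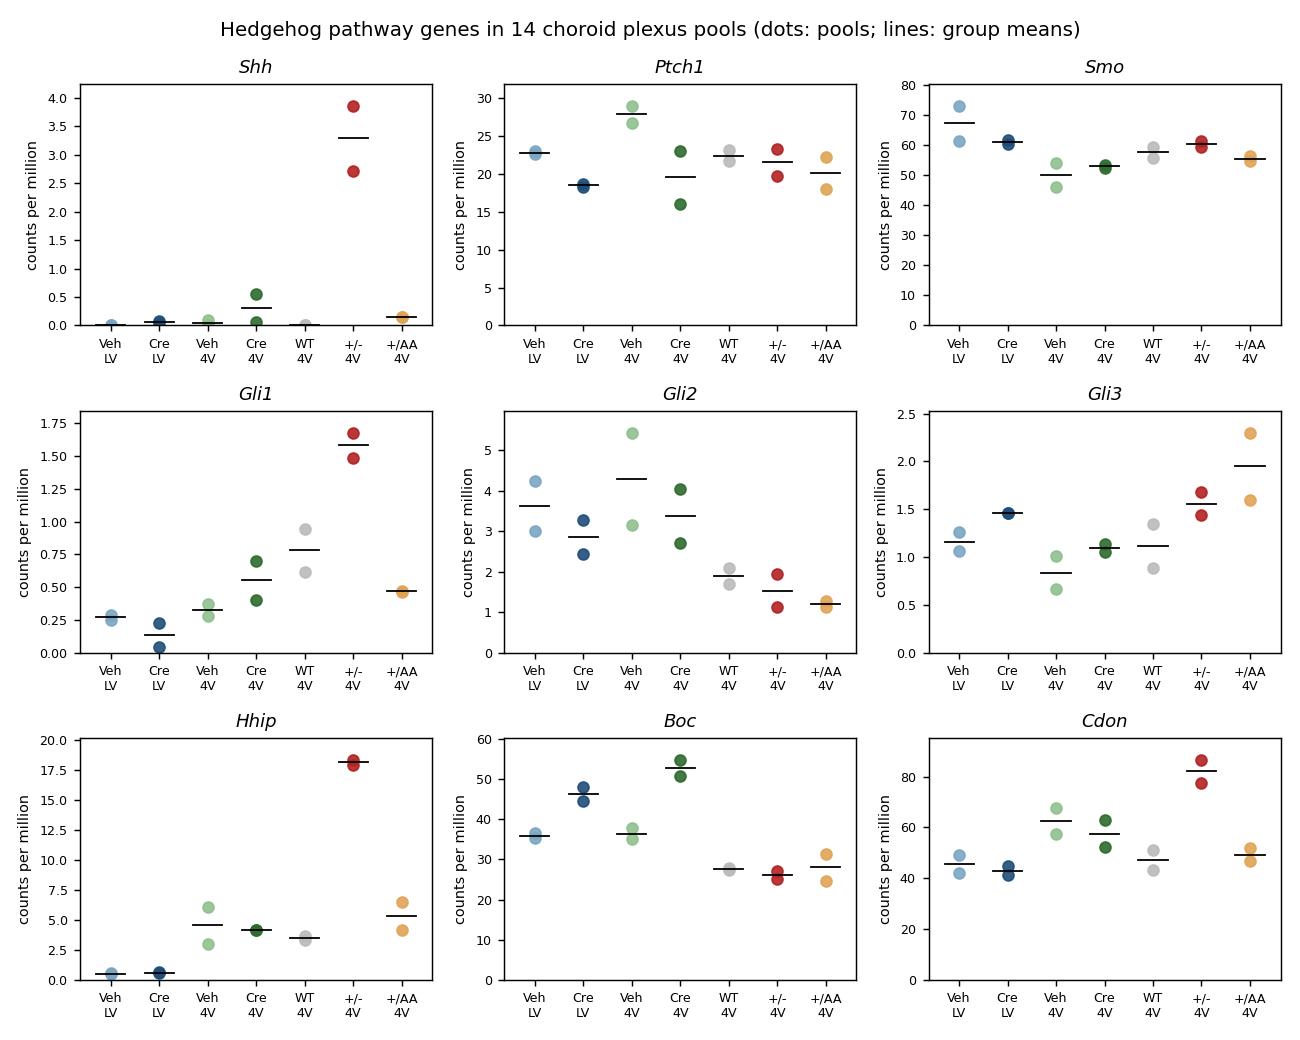
CPM (vertical axis of each panel, from 0) of 9 Hedgehog pathway genes in 14 pools, 2 dots for each of 7 groups (horizontal axis), with a line at the mean. Shh reached 3.86 and 2.72 CPM in the Otx2 (+/-) pools and at most 0.549 CPM elsewhere, Hhip separated LV from 4V pools as well as Otx2 (+/-) from the rest, and Boc was highest in the Cre pools of both ventricles.

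Shh, the secreted ligand, lies on the minus strand of chromosome 5 (GRCm38 chr5:28456815-28467256) and its transcript Shh-201 has 3 exons. It was counted 0 times in both WT pools, 76 and 53 times in the Otx2 (+/-) pools, and 3 times in each Otx2 (+/AA) pool. In the conditional model it was counted 0 times in both Veh LV pools, 2 times and 1 time in the Cre LV pools, 0 times and 1 time in the Veh 4V pools, and 1 time and 11 times in the Cre 4V pools. Thus Shh stood above 3 counts in both Otx2 (+/-) pools and in 1 of the other 12 pools, Cre 4V pool B, which held 11 counts beside 1 in its partner.

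On the scale of CPM, the Otx2 (+/-) pools held 3.29 ± 0.809 CPM of Shh (mean ± SD, n = 2), and a count of 3, taken as the floor in each library, would have been at most 0.169 CPM in WT. The mean of Shh in Otx2 (+/-) was therefore at least 19.5-fold higher than in WT, and its lower Otx2 (+/-) pool at least 16.1-fold. Shh passed the filter on low counts only through the Otx2 (+/-) group, in this comparison and in that with Otx2 (+/AA), so that no p is given for it. Against Otx2 (+/AA), the ratio of the summed counts was 22.3 after scaling by library size (95% exact interval 9.98 to 62.0, which covers counting error only). With 2 pools a group, an exact permutation test cannot go below 0.333, so each adjusted p given below, by the quasi-likelihood test of edgeR and adjusted after Benjamini and Hochberg over all genes tested, rests on the spread that edgeR shares across genes. Shh failed the filter on low counts within the conditional model. The Cre difference in 4V was also set against the Otx2 (+/-) difference in 1 fit of 8 pools. There the Shh term had a log2 difference of 6.12 and a standard error of 3.24. In that fit too, Shh passed the filter only through the Otx2 (+/-) pools, so no p is given. It cannot decide whether the models differ in Shh.

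The genes around Shh were read in the same way. The annotation places 14 other genes with a transcript in the count data within 1 Mb of Shh, of which 9 passed the filter in the comparison of Otx2 (+/-) with WT. All 9 had log2 fold changes between -0.21 and 0.28, with adjusted p of 0.258 or more (edgeR). Lmbr1, whose intron holds the limb enhancer of Shh, differed by 0.07 on the log2 scale (edgeR, adjusted p = 0.858). Rbm33, the nearest tested gene at 37.6 kb, had 739 and 642 counts in WT and 737 and 731 in Otx2 (+/-). The Rbm33 counts of the groups thus overlapped, next to the 0 and 0 against 76 and 53 counts of Shh. Exons of the annotated genes 9530036O11Rik and Gm26894 overlap those of Shh on the other strand. The libraries were strand-specific, but the strand setting used in counting is not stated, so reads of these genes cannot be told apart from those of Shh.

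The other ligands were low. Ihh, the Indian hedgehog ligand, was counted 28 times and 1 time in WT, 75 and 28 times in Otx2 (+/-), and 24 and 2 times in Otx2 (+/AA), and 0 to 2 times in each of the 8 pools of the conditional model. The pools of a group thus differed from each other as widely as the groups did, and the adjusted p was 0.301 against WT and 0.156 against Otx2 (+/AA) (edgeR). Dhh was counted 0 to 7 times in each pool.

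Hhip, the membrane protein that binds Hedgehog ligands and holds them from Ptch1, is on the minus strand of chromosome 8 (GRCm38 chr8:79965851-80058006). It was counted 361 and 350 times in the Otx2 (+/-) pools, 64 and 65 times in WT, and 89 and 125 times in Otx2 (+/AA). That is 18.3 and 17.9 CPM in Otx2 (+/-), 3.35 and 3.65 CPM in WT, and 4.17 and 6.45 CPM in Otx2 (+/AA), and the Otx2 (+/-) pools did not overlap with any of the other 12. Hhip was 5.18-fold higher in Otx2 (+/-) than in WT (log2 fold change 2.37, SE 0.17, adjusted p = 0.000411, edgeR). It was 3.41-fold higher than in Otx2 (+/AA) (log2 fold change 1.77, SE 0.21, adjusted p = 0.00108, edgeR). Its level in Otx2 (+/AA) did not pass the threshold against WT (log2 fold change 0.60, SE 0.27, adjusted p = 0.547, edgeR).

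The other Hhip transcript of the annotation, Hhip-202, behaved like the transcript that represents the gene. It was counted 11 and 14 times in WT, 80 and 79 times in Otx2 (+/-) and 32 and 28 times in Otx2 (+/AA). Its log2 fold change against WT was 2.58 (SE 0.31, adjusted p = 0.000623 over 50860 transcripts, edgeR), close to the 2.38 of Hhip-201. A read can be counted on each transcript that it overlaps, so the transcripts are not independent. An exon of Gm27820, on the other strand, overlaps Hhip.

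Cdon, a co-receptor of the immunoglobulin and fibronectin repeat family, lies on the plus strand of chromosome 9 (GRCm38 chr9:35421128-35507652). It stood at 86.5 and 77.5 CPM in the Otx2 (+/-) pools, 51.2 and 43.1 CPM in WT, and 51.7 and 46.9 CPM in Otx2 (+/AA). The WT and Otx2 (+/AA) ranges overlapped and the Otx2 (+/-) pools were above both. Cdon was 1.74-fold higher in Otx2 (+/-) than in WT (log2 fold change 0.80, SE 0.13, adjusted p = 0.0119, edgeR) and 1.66-fold higher than in Otx2 (+/AA) (adjusted p = 0.0156, edgeR). All 6 of its transcripts had positive log2 fold changes against WT, from 0.58 to 0.81, and 3 of them passed the threshold. Boc, the paralog of Cdon with the same role, held 25.2 and 27.0 CPM in Otx2 (+/-) against 27.5 and 27.8 CPM in WT (log2 fold change -0.08, SE 0.13, adjusted p = 0.789, edgeR).

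Because Hhip and Cdon moved together, the 250 bases before their RefSeq start sites are shown, 5′ to 3′ on the coding strand. RefSeq promoters were at hand for 6 of the 9 genes, without Shh, Gli1 and Boc. Capitals mark the GC box GGGCGG or its reverse complement CCGCCC, a common promoter element. The upstream region of Hhip is GRCm38.p6 chr8:80058009-80058258 on the minus strand, and that of Cdon is chr9:35451826-35452075 on the plus strand, directly before the start of the transcript counted, Cdon-201. The annotated Cdon gene begins further upstream, at 35421128, so the region shown lies inside the gene.
Hhip: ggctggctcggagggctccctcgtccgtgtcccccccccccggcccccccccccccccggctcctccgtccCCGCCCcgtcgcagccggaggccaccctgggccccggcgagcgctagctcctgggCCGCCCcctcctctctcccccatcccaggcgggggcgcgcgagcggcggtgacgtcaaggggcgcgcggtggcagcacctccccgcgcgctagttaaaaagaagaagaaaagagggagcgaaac
Cdon: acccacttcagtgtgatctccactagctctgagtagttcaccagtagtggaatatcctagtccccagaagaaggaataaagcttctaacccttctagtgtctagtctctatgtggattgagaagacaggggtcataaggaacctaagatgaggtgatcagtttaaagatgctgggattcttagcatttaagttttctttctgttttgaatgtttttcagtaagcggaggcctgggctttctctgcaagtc
The Hhip region is 76.0% G and C and holds 2 GC boxes, and the Cdon region is 42.8% G and C and holds 0. Of all 32851 RefSeq promoters cut to the same length, 32.7% hold a GC box on either strand. The core letters of the Gli site, CCACCCA, occur in 8.11% of all these regions and those of the OTX site, TAATCC, in 6.25%, on either strand. Neither set of letters occurs in the regions of Hhip and Cdon, nor in those of Ptch1, Smo, Gli2 and Gli3.

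Among the transcription factors, Gli1 is the one whose transcription is usually read as pathway activity. It was counted 33 and 29 times in Otx2 (+/-), 18 and 11 times in WT and 10 and 9 times in Otx2 (+/AA). The Otx2 (+/-) pools were the highest of all 14, at 1.68 and 1.49 CPM. The difference from WT did not pass the threshold, with a log2 fold change of 1.01 (SE 0.40, adjusted p = 0.226, edgeR). Against Otx2 (+/AA), the log2 fold change was 1.74 (SE 0.43). In that comparison Gli1 passed the filter on low counts only through the Otx2 (+/-) pools, so no p is given. The same counts, those of the single Gli1 transcript, gave 1.75 (SE 0.41) in the fit over 51105 transcripts. Exons of Arhgap9 and Gm47200 overlap those of Gli1 on the other strand.

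Gli2, the main activator in many tissues, held 1.12 and 1.95 CPM in Otx2 (+/-) and 2.09 and 1.69 CPM in WT (adjusted p = 0.731, edgeR). Gli3, which acts mainly as a repressor, held 1.68 and 1.44 CPM in Otx2 (+/-), 0.889 and 1.35 CPM in WT and 2.30 and 1.60 CPM in Otx2 (+/AA) (adjusted p = 0.567 for Otx2 (+/-) against WT, edgeR). For Gli2 the ranges of Otx2 (+/-) and WT overlapped, and for Gli3 the Otx2 (+/-) pools lay above the WT pools and overlapped with Otx2 (+/AA). At 22 to 40 counts of Gli2 and 17 to 49 counts of Gli3 per pool in this model, their standard errors were 0.35 to 0.40 on the log2 scale.

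Ptch1, the receptor and a target of the pathway, was near the same level in all groups of the constitutive model, at 23.3 and 19.7 CPM in Otx2 (+/-), 23.2 and 21.6 CPM in WT, and 18.0 and 22.2 CPM in Otx2 (+/AA). Its log2 fold change between Otx2 (+/-) and WT was -0.06 with a standard error of 0.14 (adjusted p = 0.882, edgeR). Smo, the transducer, stood at 59.3 and 61.3 CPM in Otx2 (+/-) and 59.5 and 55.9 CPM in WT, a log2 fold change of 0.06 with a standard error of 0.11 (adjusted p = 0.812, edgeR). With errors of this size, changes of the extent seen in Cdon would have been several standard errors from 0 in Ptch1 and Smo.

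In all, 3 of the 9 genes were higher in Otx2 (+/-) than in WT and 0 were lower, where 3.55% of all genes tested were called in either direction and 1.8% were called higher. Shh is among the 3 although it was tested only because it is high in Otx2 (+/-), and without it the count is 2 of 8. Their median log2 fold change was 0.48, with Shh at its bound or at its fitted value, beside 0.00 over all genes tested. Against Otx2 (+/AA), 3 of the 9 were higher and 0 lower, where 2.7% of all genes were called and 1.36% were called higher, and without Shh the count is again 2 of 8. Between Otx2 (+/AA) and WT, 8 of the 9 were tested and 0 were called, where 0.345% of all genes were called by edgeR. Of all genes, 1292 had an unadjusted p under 0.05, Hhip alone of the 8 among them. DESeq2 also called 0 of the 8. These 3 comparisons share pools and are not independent of each other.

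**Figure D2:**
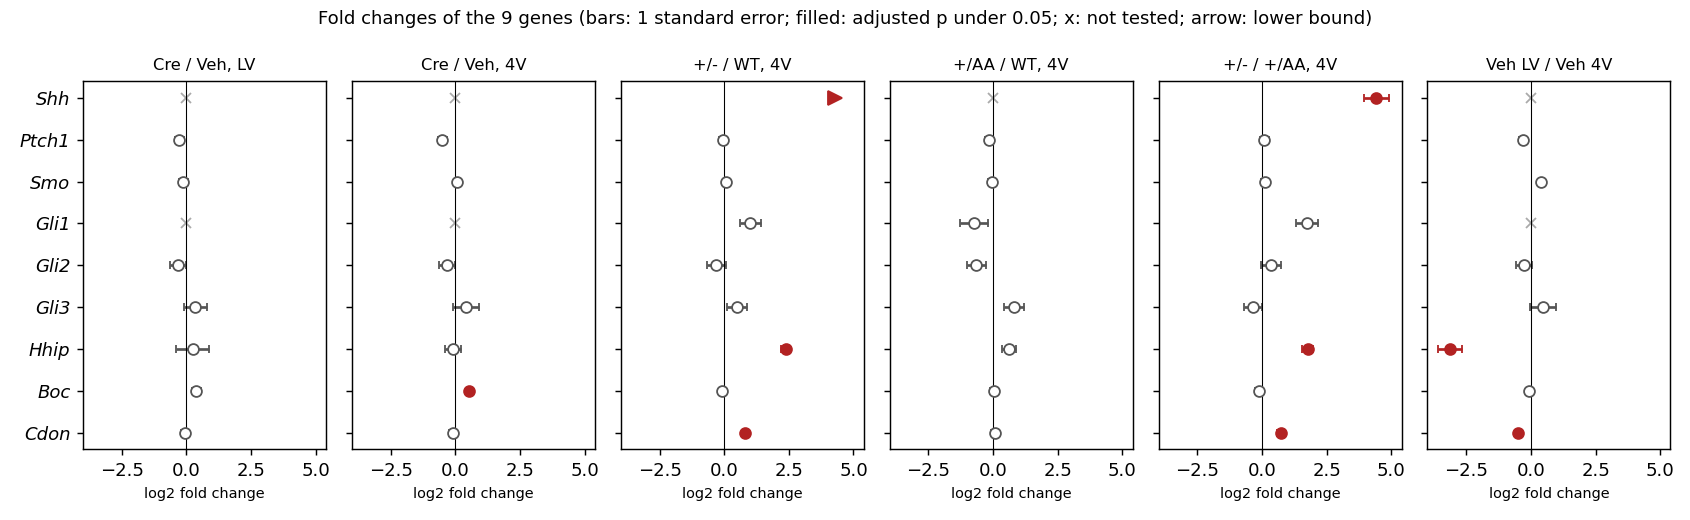
Log2 fold changes (horizontal axis) of the 9 genes (rows) in 6 comparisons (panels, first group over second), with bars of 1 standard error. Filled red dots passed an adjusted p of 0.05, grey crosses mark genes that failed the filter on low counts, and the red arrow is the lower bound of Shh. The filled dot of Shh against Otx2 (+/AA) is not to be read as a test. Shh entered that comparison only through the Otx2 (+/-) pools. The same holds for the filled dot of Hhip between ventricles, where Hhip entered only through the 4V pools. Hhip ran from -3.12 between ventricles to 2.37 in Otx2 (+/-) against WT, and Ptch1 and Smo lay between -0.50 and 0.39.

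Other cell types were checked beside these changes. Shh is made by Purkinje cells in the cerebellum, which lies against the 4V ChP. The 9 Purkinje markers summed to 12.6 to 12.9 CPM in Otx2 (+/-) and 10.4 to 13.1 CPM in WT, and 0 of the 5 tested passed the threshold by edgeR. Car8 held 11.4 and 8.61 CPM in Otx2 (+/-) and 7.64 and 7.36 CPM in WT (log2 fold change 0.41, adjusted p = 0.293, edgeR), and Pcp2 had 1 and 1 counts in Otx2 (+/-) and 3 and 7 in WT. The 6 markers of cerebellar granule cells summed to at most 2.30 CPM in any of these 4 pools. Of 5 astrocyte markers, Aqp4 and Slc1a3 were higher in Otx2 (+/-) than in WT, by 3.34-fold and 3.04-fold, and the list summed to 167 to 226 CPM against 148 to 165 CPM. Of 5 fibroblast markers, Col1a2 was higher, by 2.13-fold, and the list summed to 946 to 1062 CPM against 690 to 773 CPM. Of 5 macrophage markers Mrc1 was higher, by 1.56-fold, with a sum of 63.4 to 69.8 CPM against 50.5 to 54.8 CPM, and of 10 epithelial markers Ttr and Folr1 were lower. In the lists for ependymal cells, oligodendrocytes, endothelium, mural cells and other neurons, 0 markers passed. Against Otx2 (+/AA), Slc1a3 was higher by 2.05-fold, Dcn by 1.81-fold and Col1a2 by 1.70-fold, and Folr1 was lower. The Otx2 (+/AA) pools themselves summed to 182 to 198 CPM for astrocytes, 66.6 to 71.2 CPM for macrophages and 613 to 721 CPM for fibroblasts. The 1st and 2nd of these sums were thus also above WT. The part of astrocytes, fibroblasts, macrophages and epithelium in the levels of Shh, Hhip, Cdon and Gpc3 was not tested.

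In the conditional model, the question was whether the acute loss of Otx2 in adult ChP alters the same pathway. Of the 7 members tested in LV ChP, 0 were called between the Cre and Veh pools, where 3.24% of all genes were called and 2126 genes had an unadjusted p under 0.05. Boc alone of the 7 was among these, and DESeq2 also called 0. Their log2 fold changes ran from -0.32 for Gli2 to 0.39 for Boc, with a median of -0.06. In 4V ChP, 1 of 7 was called, and it was higher in the Cre pools, where 10.7% of all genes were called and 5.7% were called higher. That share of 1 in 7 is near the share of all genes. The median log2 fold change of the 7 was -0.09.

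Boc, on chromosome 16 (GRCm38 chr16:44485049-44558897, minus strand), was the gene called. It held 50.8 and 54.8 CPM in the Cre 4V pools and 37.9 and 35.0 CPM in the Veh 4V pools. In LV ChP it held 44.6 and 47.9 CPM in the Cre pools and 36.6 and 35.2 CPM in the Veh pools. The Cre pools were above the Veh pools in both ventricles. The difference passed the threshold in 4V (1.45-fold, log2 fold change 0.54, SE 0.14, adjusted p = 0.0141, edgeR) and not in LV (log2 fold change 0.39, SE 0.16, adjusted p = 0.255, edgeR). The difference between the ventricles was itself small and not called (log2 difference 0.15, SE 0.19, adjusted p = 1.00, edgeR). Without Veh 4V pool A or without Veh 4V pool B, the adjusted p for 4V was 0.0548 or 0.162 (edgeR), and the log2 fold change was 0.62 or 0.48. With the files as attached, the direction turned, with log2 fold changes of -0.20 in 4V and -0.17 in LV (adjusted p = 0.000241 and 0.00345, edgeR).

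Ptch1 lay the other way in the same pools. It held 16.1 and 23.0 CPM in the Cre 4V pools and 26.7 and 29.0 CPM in the Veh 4V pools, and 18.7 and 18.3 CPM in the Cre LV pools against 22.6 and 23.0 CPM in the Veh LV pools. The groups did not overlap in either ventricle, but the adjusted p was 0.0788 in 4V and 0.520 in LV (edgeR), with log2 fold changes of -0.50 (SE 0.17) and -0.28 (SE 0.16). Leaving out 1 pool at a time in 4V gave log2 fold changes from -0.78 to -0.27. The largest was without Cre 4V pool B, the Cre pool with the higher Ptch1 level.

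Hhip and Cdon, which were higher in Otx2 (+/-), were not called between Cre and Veh pools. Hhip held 4.16 and 4.19 CPM in the Cre 4V pools and 3.01 and 6.07 CPM in the Veh 4V pools, and Cdon 52.1 and 62.9 CPM against 57.3 and 67.6 CPM. The Veh pools enclosed the Cre pools for Hhip, and the ranges overlapped for Cdon. With the files as attached, both were called lower in the Cre 4V pools, Hhip with a log2 fold change of -2.96 and Cdon with -0.53, so these comparisons rest on how the files are joined. Gli1, with 13 and 8 counts in the Cre 4V pools and 5 and 3 in the Veh 4V pools, failed the filter on low counts.

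The difference between the models was tested with an interaction term over the 8 pools of 4V ChP labelled Cre, Veh, Otx2 (+/-) and WT. Hhip and Cdon were called, 2 of 9, where 1.64% of all genes were called. The log2 fold change of Hhip was higher by 2.47 in the constitutive model (SE 0.37, adjusted p = 0.00494, edgeR), and that of Cdon by 0.92 (SE 0.20, adjusted p = 0.0366, edgeR). The Cdon call was lost without Otx2 (+/-) pool A, WT pool A or B, Cre pool A, or Veh pool A or B, where its adjusted p ran from 0.0609 to 0.192 (edgeR). Boc had a log2 difference of -0.61 (SE 0.17, adjusted p = 0.118, edgeR). Strain, run and manipulation differ along with the model, so this test compares the models as they are. With the files as attached, the terms were 5.35 for Hhip and 1.34 for Cdon, both called. The corresponding test of Cre with ventricle called 0 of 7 members, where 0.00642% of all genes, 1 of 15565, were called, with 0 of the 7 members by DESeq2 and 0 of the 7 at an unadjusted p under 0.05.

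The markers moved more in the conditional model. All 10 epithelial markers were lower in the Cre than in the Veh pools of 4V ChP, with sums of 85153 to 97232 CPM against 183347 to 216358 CPM, and 6 of 10 were lower in LV ChP. Of the ependymal markers, Foxj1 and Dynlrb2 were higher in the Cre pools of both ventricles, and the 5 summed to 263 to 276 CPM against 130 to 162 CPM in 4V ChP. Of the macrophage markers, Adgre1, Csf1r and Mrc1 were higher in 4V ChP. Also in 4V ChP, Slc1a3, Gfap and Aqp4 of the astrocytes, Col1a2 of the fibroblasts, Plvap of the endothelium and Slc1a6 of the Purkinje list were higher, and Aldh1l1, Pdgfra and Syt1 were lower. Of the 9 Purkinje markers, 2 were tested in 4V ChP, and the other, Car8, lay lower without a call (log2 fold change -0.72, adjusted p = 0.163, edgeR). In LV ChP, Adgre1, Aqp4, Col1a2, Slc1a6 and the neuronal marker Snap25 were also called higher in the Cre pools, and Aldh1l1 and Pdgfra lower. Slc1a6 had 2 and 2 counts in the Veh LV pools and 91 and 86 in the Cre LV pools, so it passed the filter there only through the Cre pools. The part of these cell types in the level of Boc was not tested.

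The ventricles were compared in the Veh pools. LV and 4V ChP were taken from the same injected mice, but it is not stated that pools with the same letter hold the same mice, so the pools were tested as independent and values with the letter as a block are added where they change a call. Of 7 members tested, Hhip and Cdon were called and both were lower in LV, where 7.45% of all genes were called and 3.98% were called lower. Hhip is among these 2 although it passed the filter on low counts only through the 4V pools, so no p is given for it here. Hhip was counted 10 and 11 times in the Veh LV pools and 41 and 66 times in the Veh 4V pools, although the LV libraries were larger. Its level was 0.484 and 0.554 CPM in LV and 3.01 and 6.07 CPM in 4V, an 8.72-fold difference (log2 fold change -3.12, SE 0.45). In the Cre pools, which that comparison did not use, Hhip was again low in LV, at 0.526 and 0.682 CPM, and higher in 4V, at 4.16 and 4.19 CPM. All 10 pools of 4V ChP, from either model, were above all 4 pools of LV ChP. With the files as attached, the log2 fold change of Hhip between ventricles was -0.39 (adjusted p = 0.0921, edgeR) and that of Cdon was -0.24 (adjusted p = 3.26e-06, edgeR).

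Cdon held 42.0 and 49.1 CPM in the Veh LV pools and 57.3 and 67.6 CPM in the Veh 4V pools (log2 fold change -0.48, SE 0.13, adjusted p = 0.0373, edgeR), and 44.7 and 41.1 CPM against 52.1 and 62.9 CPM in the Cre pools. Leaving out Veh LV pool A, Veh 4V pool A or Veh 4V pool B gave an adjusted p of 0.117, 0.0520 or 0.297 (edgeR). Smo was on the other side, with 61.3 and 73.2 CPM in LV and 54.2 and 46.0 CPM in 4V, and did not pass the threshold (log2 fold change 0.39, SE 0.13, adjusted p = 0.0929, edgeR). With the pool letter as a block, Smo was called higher in LV (log2 fold change 0.39, adjusted p = 0.0186, edgeR), and the adjusted p of Cdon was 0.00176. In the 1 Mb around Shh, En2 and Cnpy1, genes of the midbrain and hindbrain region, were lower in LV than in 4V ChP. Their log2 fold changes were -4.47 for En2 and -4.28 for Cnpy1 (adjusted p = 0.000264 for Cnpy1, edgeR). En2 failed the filter on low counts among the LV pools and entered this comparison through the 4V pools, so no p is given for it. Of the marker lists, Pecam1 and Plvap of the endothelium, Dcn of the fibroblasts, Csf1r of the macrophages, Mobp of the oligodendrocytes and Slc1a3 of the astrocytes were higher in LV and Aldh1l1 of the astrocytes was lower, and their part was not tested.

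Levels were compared between genes only as CPM per kb of the transcript. In WT, Smo was highest at 15.3 ± 0.667 CPM per kb (mean ± SD, n = 2), followed by Cdon at 6.54 ± 0.795, Boc at 6.21 ± 0.0560 and Ptch1 at 2.90 ± 0.141. Hhip at 0.386, Gli2 at 0.285, Gli1 at 0.192 and Gli3 at 0.137 CPM per kb followed, and Shh was at 0. Cdon and Boc did not differ beyond their spread, and neither did Gli1 and Gli3, while the other neighbours in this order did not overlap. In Otx2 (+/-), Cdon stood at 11.4 ± 0.884 CPM per kb, apart from Boc at 5.87 ± 0.288, and Hhip reached 2.00 ± 0.0312. Shh came sixth at 1.16 ± 0.284 CPM per kb, above Gli1 at 0.390 ± 0.0331, while Gli2 and Gli3 could not be ordered within their spread. The receptors and co-receptors were thus present at levels well above the Gli factors in every group, as the plot of levels per length shows.

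**Figure D3:**
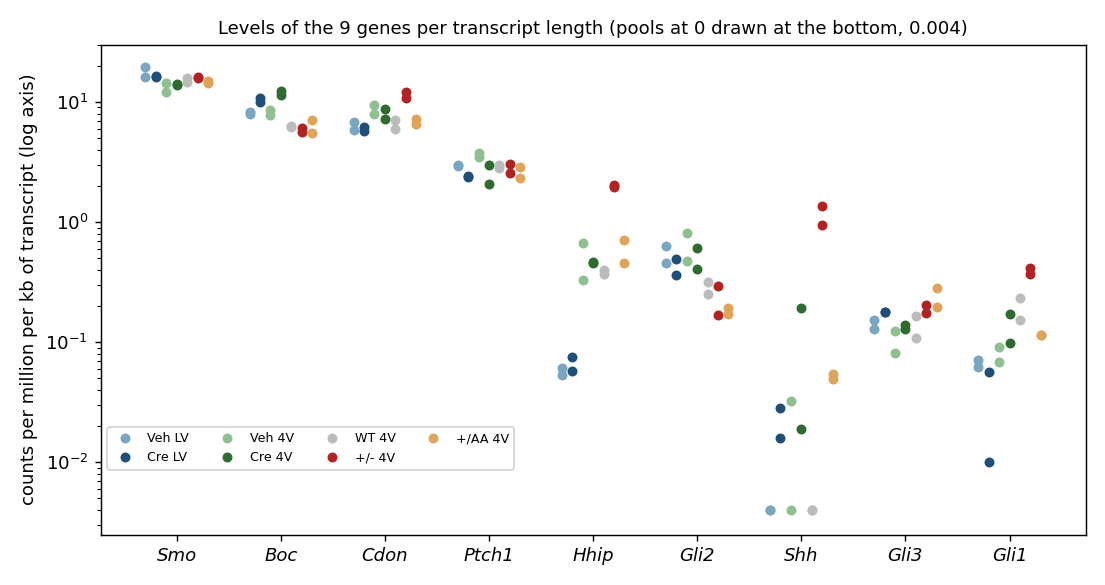
CPM per kb of transcript (vertical log axis) of the 9 genes (horizontal axis), with 1 dot per pool and 1 color per group. Pools at 0 are drawn at the bottom. Smo, Boc, Cdon and Ptch1 lay above 2 CPM per kb in all 14 pools, and Shh and Hhip spread most widely across the groups.

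The further genes of the pathway were taken as 4 lists of 49 genes, of which 47 were matched. For each comparison the counts are given by list, and the genes past the threshold are named. Between Otx2 (+/-) and WT, 1 of 39 tested genes was higher and 0 were lower, with a median log2 fold change of 0.08. That count is near the 1.8% of all genes called higher. That gene was Gpc3, a glypican that binds Hedgehog ligands at the cell surface and competes with Ptch1 for them. It held 35.4 and 37.0 CPM in Otx2 (+/-), 14.4 and 12.1 CPM in WT and 16.6 CPM in each Otx2 (+/AA) pool, and was 2.73-fold higher than in WT (log2 fold change 1.45, SE 0.14, adjusted p = 0.00135, edgeR) and 2.17-fold higher than in Otx2 (+/AA) (adjusted p = 0.00145, edgeR). Gpc3 was also lower in LV than in 4V ChP of the Veh mice, as Hhip and Cdon were, with 6.34 and 8.61 CPM against 14.04 and 15.5 CPM (log2 fold change -1.01, SE 0.19, adjusted p = 0.00599, edgeR). Without Veh 4V pool B, its adjusted p was 0.0624 (edgeR).

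By list, 0 of 6 tested genes for the ligands and their release, 0 of 22 for signal transduction at the primary cilium and 0 of 7 known targets were called between Otx2 (+/-) and WT by edgeR. The targets Ccnd2, Bcl2 and Ccnd1, which carry the most counts in their list, stood at 163 and 130, 105 and 86.1, and 20.2 and 22.1 CPM in Otx2 (+/-) against 131 and 140, 75.8 and 59.3, and 26.1 and 13.8 CPM in WT. The pools of the groups overlapped for Ccnd2 and Ccnd1, and those of Bcl2 did not, without a call for any of them. The most abundant genes of the list for signal transduction at the primary cilium were Cul3, Csnk1a1 and Prkar1a. They had 302 to 350, 225 to 262 and 180 to 192 CPM in Otx2 (+/-) and 262 to 266, 200 to 216 and 160 to 169 CPM in WT, without a call. Scube3 and Scube1, secreted proteins that help the release of the ligand, stood at 50.9 and 49.7 and at 19.97 and 19.7 CPM in Otx2 (+/-) and at 46.9 and 53.4 and at 18.0 and 19.4 CPM in WT. Against Otx2 (+/AA), 1 gene was higher, Gpc3, and 1 was lower, Gpr161, a ciliary receptor that restrains the pathway, with 1.37 and 1.59 CPM against 4.32 and 3.87 CPM (log2 fold change -1.47, SE 0.28, adjusted p = 0.0162, edgeR). With counts summed over transcripts, the adjusted p of Gpr161 was 0.0608 (edgeR). Between Otx2 (+/AA) and WT, 0 of 39 were called by edgeR.

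Between the Cre and Veh pools of 4V ChP, 3 of 36 tested genes were higher and 0 were lower, beside the 5.7% of all genes called higher, and the median log2 fold change was 0.12. They were Disp1, the transporter that releases the lipid-bearing ligand, Gas1, a co-receptor anchored in the membrane, and Osr1, a zinc finger gene listed among the targets. Disp1 held 32.1 and 33.6 CPM in the Cre pools against 22.2 and 23.0 CPM (adjusted p = 0.0213, edgeR), and Gas1 14.6 and 14.5 CPM against 7.79 and 9.20 CPM (1.73-fold, adjusted p = 0.00860, edgeR). Osr1 rose from 11 and 7 counts in the Veh pools to 69 and 72 in the Cre pools (4.96-fold, log2 fold change 2.31, SE 0.39, adjusted p = 0.000618, edgeR). The call of Disp1 was lost without Cre pool B (adjusted p = 0.0508), Veh pool A (0.150) or Veh pool B (0.0943), and that of Gas1 without Veh pool A (0.0931), all by edgeR. In LV ChP, 0 of 38 were called by edgeR. Between ventricles, 5 of 36 were lower in LV and 0 were higher, beside the 3.98% of all genes called lower: Disp1, with 8.62 and 7.05 CPM against 22.2 and 23.0 CPM, the endocytic receptor Lrp2, with 1.60 and 1.11 CPM against 4.34 and 4.05 CPM, Gpc3, and the cilium genes Stk36 and Tulp3. The calls of Lrp2, Stk36 and Tulp3 depended on single pools, with an adjusted p of 0.0617, 0.279 and 0.184 without Veh 4V pool B (edgeR). That of Lrp2 was also lost without Veh 4V pool A (0.0700), that of Tulp3 without Veh 4V pool A (0.0976) or Veh LV pool B (0.0737), and that of Stk36 without Veh LV pool B (0.111).

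**Figure D4:**
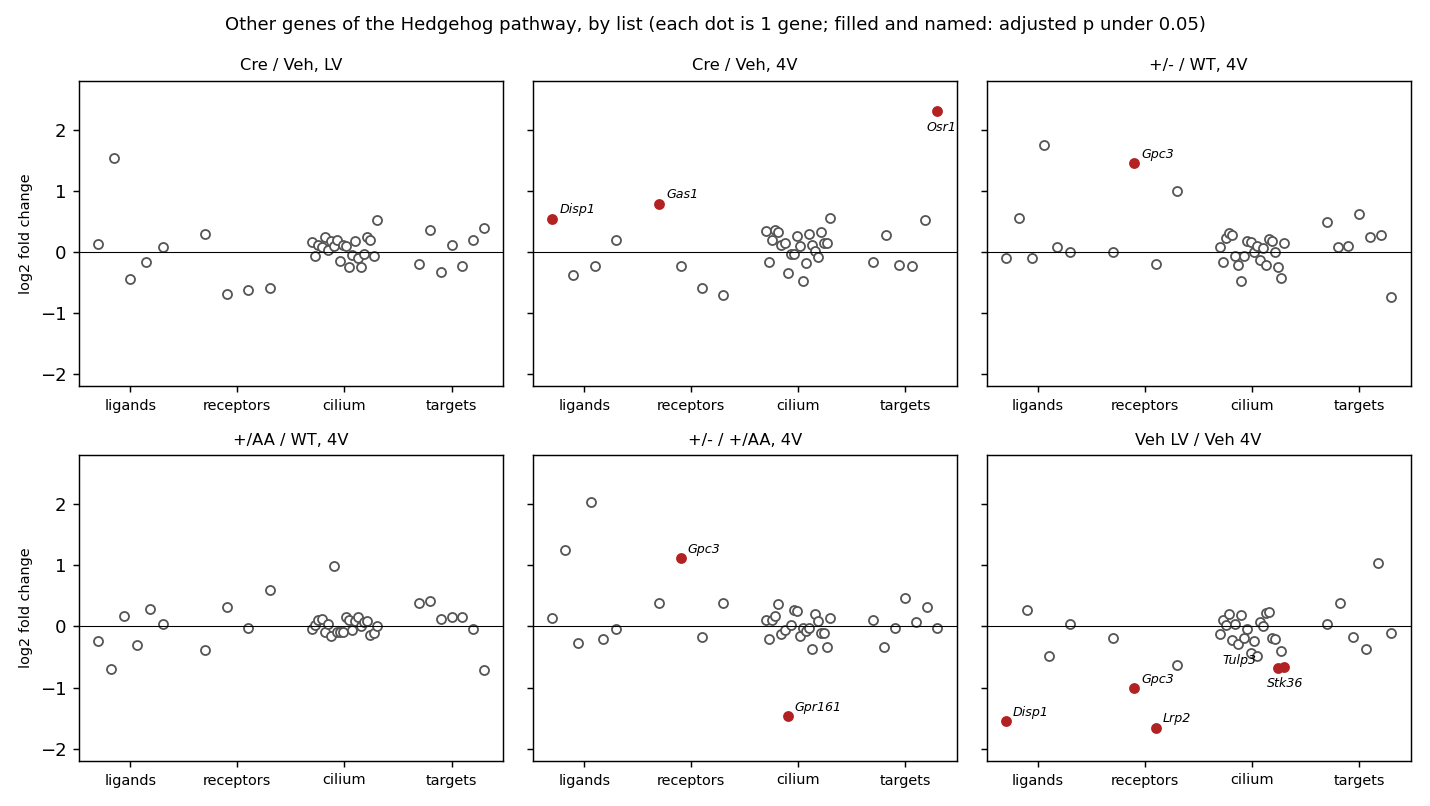
Log2 fold changes (vertical axis) of the other pathway genes tested, in 4 lists (horizontal axis) and 6 comparisons (panels, first group over second). Each dot is 1 gene, and filled red dots with a name passed an adjusted p of 0.05. Gpc3 was the gene called in Otx2 (+/-) against WT, and 3 genes were called between Cre and Veh pools of 4V ChP.

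The genes whose levels followed those of Shh most closely over the 14 pools were looked up among 14623 genes with a mean of at least 10 counts, by Pearson's r of log2 CPM. They were 5430419D17Rik (r = 0.931), Nrp2 (0.907), Igf1 (0.903), Etaa1 (0.889) and Mme (0.889). The points share their groups, and the pattern is set by the Otx2 (+/-) pools: 5430419D17Rik stood at 16.0 ± 3.003 CPM (mean ± SD, n = 2) in Otx2 (+/-) and 0.687 ± 0.380 CPM in WT, Nrp2 at 114 ± 3.86 and 36.6 ± 2.88 CPM, and Mme at 58.7 ± 9.45 and 23.0 ± 1.85 CPM. Nrp2 was also higher in the Cre than in the Veh 4V means, 68.4 ± 8.93 and 34.7 ± 3.01 CPM. Of the members, Cdon (0.826), Hhip (0.717) and Gli1 (0.612) had the highest r with Shh, and Ptch1 had -0.04. The levels of Ptch1 were most like those of Uhrf1bp1 (0.893), Ubr3 (0.885), Pdzd2 (0.877), Zbtb34 (0.873) and Baiap2l1 (0.873), and among the members most like those of Cdon (0.330) and Gli2 (0.329). These are descriptions over pools of the same libraries.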

How the data were processed

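RNA of 14 pools of ChP was sequenced (50-base reads, 22 files). The authors deposited raw counts of reads per Ensembl transcript, without normalization. The submitters' processing notes name Bowtie 0.12.9, HTSeq 0.5.3, DESeq 1.8.3 and build mm10. The labels describe ribosomal depletion and strand-specific libraries, the study's methods PolyA+ selection.

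In the conditional model, 14 of 16 files carry a library number other than that of their GEO sample. Files were joined by library number, because those pairs of runs differed by sampling noise alone (chi-square 1.00 to 1.03 times its degrees of freedom) and the attached pairs by 13.2 to 20.5 times. The 2 runs of a pool were summed. Of 95533 transcripts, 82807, with 89.5% of the counts, matched GENCODE vM21 (GRCm38), and the transcript with the highest summed count stood for its gene.

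The main test was that of edgeR 4.0.16 under R 4.3.3 (filterByExpr, TMM, quasi-likelihood test, Benjamini-Hochberg over all genes tested, threshold 0.05) on the pools compared, with the biological coefficient of variation at 0.114 to 0.152, and interactions over 8 pools. CPM were scaled with TMM over all 14 pools. A fold against a group at 0 is a bound against a floor of 3 counts in each library. Floors and intervals cover counting error only. The procedure was tested on simulated data. Alternatives were DESeq2 1.42.0, its size factors, total counts, other filters, sums over transcripts, all groups of a run in 1 fit, pool letters as a block, files as attached and each pool left out.

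The 9 genes and the gene lists were chosen with earlier results of these data known. Named genes are the 9 members, Otx2, listed pathway genes past the threshold or among the 3 with the most counts of a list, neighbours of Shh within 1 Mb, and the 5 genes most like Shh and Ptch1. Ihh and Dhh were singled out as the other ligands after their values were seen. Markers are named where called, except the epithelial markers of the conditional model, which are given as counts. Foxf1 and Foxl1 were not analysed here.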

Additional observations from a re-analysis of the deposited data

Results flagged for a closer look

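The response of Hhip differed between the models: the interaction term over the 8 pools of 4V ChP was 2.47 on the log2 scale (SE 0.37, adjusted p = 0.00494, edgeR), with Hhip 5.18-fold higher in Otx2 (+/-) than in WT and a log2 fold change of -0.09 (SE 0.30) between the Cre and Veh pools. The response of Cdon differed too, by 0.92 (SE 0.20, adjusted p = 0.0366, edgeR), with log2 fold changes of 0.80 and -0.11, and that call was lost in 9 of 16 alternatives. Strain, sequencing run and manipulation cannot be told apart from the model. Groups of 2 pools were too small for a check of single outlying pools.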

How the results depend on the processing

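Leaving aside the files as attached, 767 values of single genes were computed under alternatives. Of these, 726 kept their side of the threshold, 34 lost a call, 7 gained one and 0 reversed where either value was called. Among the 726, values without a call could change sign, as that of Smo in LV did (log2 fold change -0.12, and up to 0.05 under an alternative). Hhip, Cdon and Gpc3 remained called in Otx2 (+/-) against WT and against Otx2 (+/AA) in all 12 alternatives of each comparison. The number of members called in 4V between Cre and Veh, 1, was 2 without the filter on low counts and with the replicate block, where Ptch1 was added, and 0 to 2 when a pool was left out. Between ventricles, 2 became 1 with DESeq2, with sums over transcripts and with all groups of the run in 1 fit, and was 1 to 2 when a pool was left out, where Cdon lost its call. In the interaction with the model, 2 became 1 with total counts, with sums over transcripts and with the replicate block, and was 1 to 2 when a pool was left out. The cause was not tested.

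The pool letters share only a name between groups of different mice, and whether they pair LV with 4V pools of the same mice is not stated. The deviations of same-lettered pools correlated from -0.128 (LV) to 0.359 (Otx2 (+/-) against WT). The replicate block raised the number of genes called from 1554 to 3113 in 4V, from 517 to 2538 in Otx2 (+/-), from 50 to 549 in Otx2 (+/AA) and from 1085 to 2274 between ventricles, where Smo was added (0.39, adjusted p = 0.0186, edgeR), and from 1 to 2 for Cre with ventricle. Crossed letters, added after seeing the data, gave 1012 genes and 0 members in LV, against 486 and 0.

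With the files as attached, both pools of a group held runs of the same mixture, and 5 members were called in LV, 5 in 4V, 3 for Cre with ventricle and 4 for the model. Over all genes, 6710 were called in LV, 8742 in 4V, 4718 between ventricles, 5254 for Cre with ventricle and 4693 for the model. Log2 fold changes then reversed for Smo (0.16), Hhip (-2.86) and Boc (-0.17) in LV, for Boc (-0.20), Disp1 (-1.96), Osr1 (-1.42) and Gas1 (-0.63) in 4V, and for Gpc3 (0.21) between ventricles.

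Other counts of genes called changed by over 1.5 times, from 393 in Otx2 (+/-) against Otx2 (+/AA), 1 for Cre with ventricle, 252 for the model and those given above. Leaving out a pool gave 321 to 738 genes in LV, 892 to 1665 in 4V, 402 to 882 in Otx2 (+/-) against WT, 33 to 382 in Otx2 (+/AA) against WT, 409 to 801 in Otx2 (+/-) against Otx2 (+/AA), 402 to 1968 between ventricles, 0 to 3 for Cre with ventricle and 80 to 246 for the model. Without the filter they were 874 in LV, 390 in Otx2 (+/AA) against WT, 1840 between ventricles, 31 for Cre with ventricle and 625 for the model. DESeq2 gave 122 in Otx2 (+/AA) against WT and 5 for Cre with ventricle. Sums over transcripts gave 22 in Otx2 (+/AA) against WT, 248 in Otx2 (+/-) against Otx2 (+/AA), 0 for Cre with ventricle and 166 for the model, the mean count filter 0 for Cre with ventricle, and all groups of a run in 1 fit gave 18 in Otx2 (+/AA) and 717 between ventricles. Scaling by total counts moved the median over all genes, on the log2 scale, to 0.17 in LV, 0.15 in 4V, 0.11 in Otx2 (+/AA) against WT, -0.12 for the model and -0.19 between ventricles, where Ptch1 was then called (-0.51, adjusted p = 0.0475, edgeR). Depth limits Shh, Ihh, Gli1 and Gli3 most, which had under 80 counts in every pool.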
